A study of Homo sapiens with 6 samples.

Results

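The genes of the proteasome, the protease that degrades ubiquitin-tagged proteins, were taken from ribosome profiling of HEK293 cells as all symbols made of PSM, a letter from A to G and a number. Of the genes of the series, 43 fit: 39 of the 8121 genes with a translational efficiency and 40 of the 9570 transcripts with a ribosome occupancy, 36 of them in both. PSMA4, PSMC6 and PSMF1 were found only among the translational efficiencies, and PSMB3, PSMC4, PSME1 and PSME2 only among the occupancies. No row was found for PSMA8, PSMB8, PSMB9, PSMB11 or PSMD5 in the tables used here. HEK293 is a human embryonic kidney cell line, here a single line with a control siRNA according to the labels and without any other condition, so levels are compared between genes and not between treatments. The 3 ribosome-protected fragment (RPF) libraries and the 3 total RNA libraries come from 3 replicates, and cycloheximide was used at 100 µg/ml. Of 7 genes listed as present in HEK293 cells (VIM, KRT8, KRT18, NEFM, NEFL, PAX2 and LHX1), 6 had a row in either table. PAX2 had none, and LHX1 had an occupancy only, with an estimated 0.389 reads per codon. Of 6 genes of other tissues (ALB, PTPRC, CD3E, HBB, MYH7 and INS) none had a row.

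The 20S core of the proteasome is a barrel of stacked rings. The alpha subunits form the outer rings and gate the entrance, and the beta subunits form the inner rings, where PSMB5, PSMB6 and PSMB7 carry the chymotrypsin-like, caspase-like and trypsin-like sites. The 19S particle caps the barrel: the ATPases of its base unfold the substrate, PSMD4 binds ubiquitin chains and PSMD14 in the lid cuts them off. The subunits are needed in fixed proportions, and dedicated chaperones (PSMG1 to PSMG4 for the core, PSMD5, PSMD9 and PSMD10 for the base) guide their assembly.

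Some sequences are shown first because the position of the ribosomes in them carries a finding below. In the CDS of PSMD8, a lid subunit, the first 3 in-frame ATG codons (capitals) are at codons 1, 64 and 94, on the plus strand of GRCh37 at chr19:38865230-38865256, chr19:38865419-38865445 and chr19:38865509-38865535.
PSMD8, codon 1: gctccaactgacATGttcattaagggc
PSMD8, codon 64: gcatcacgcaagATGgcggccgcggcg
PSMD8, codon 94: gccgcgaccggcATGtacgagcaactc
The codons with the largest share of the reads of their CDS (capitals) include those of PSMG3 at codon 5 (minus strand, chr7:1608949-1608975), PSMG4 at codon 108 (plus strand, chr6:3267884-3267910), PSMG1 at codon 154 (minus strand, chr21:40550493-40550519) and PSMB5 at codon 30 (minus strand, chr14:23502671-23502697). Each of the 4 stretches lies within a single coding exon. In PSMG1 and PSMB5 the codons are numbered in a CDS shorter than the canonical one of GENCODE.
PSMG3, codon 5: atggaagacacgCCGttggtgatatcg
PSMG4, codon 108: ttcgcattacttGTAgaaaacaggatc
PSMG1, codon 154: catgttaccgatTATaaaacctcagaa
PSMB5, codon 30: aataaggaacgcATCtctgtagcagct

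The occupancy table combines the replicates, but its values could be taken apart. An occupancy is the number of in-frame RPF reads at a codon, normalized by the authors for library size and divided by the TPM of the mRNA, a measure of its abundance in total RNA, so a read has a fixed worth in each library and transcript. All 12333 values above 0 in the 40 transcripts were sums of whole reads of 3 libraries, with 0 values that allowed more than a single solution. This gave 727606 reads in the CDS, of which 311022, 253126 and 163458 were in the deepest, middle and shallowest library. The libraries were ordered by depth within each transcript and were not matched to the numbered replicates. Reads per codon are given below with each library scaled to the same total over these genes, and the spread between the 3 libraries is the replicate error. The median coefficient of variation was 2.6% over the 40 transcripts.

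Most proteasome transcripts had many footprints per codon. The median over the 40 transcripts was 49.3 reads per codon and that over all transcripts 3.99, both estimated in the same way, and 39 of the 40 lay above that median. Reads per codon are not divided by mRNA abundance. In occupancy, which is, the medians were closer, at 0.0698 over the 40 transcripts and 0.0450 over all transcripts. In that measure 31 of the 40 lay above the median of all transcripts. The estimated 90th percentile of all transcripts in reads per codon, 39.2, was exceeded by 25 of the 40. For the whole table reads were estimated and not counted, and in the proteasome transcripts the estimate differed from the count by a median of 3.65% and by at most 14.3%. The factor of the estimate was set on these same transcripts. Its error in other transcripts, many of them sparser, is therefore not known.

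**Figure D1:**
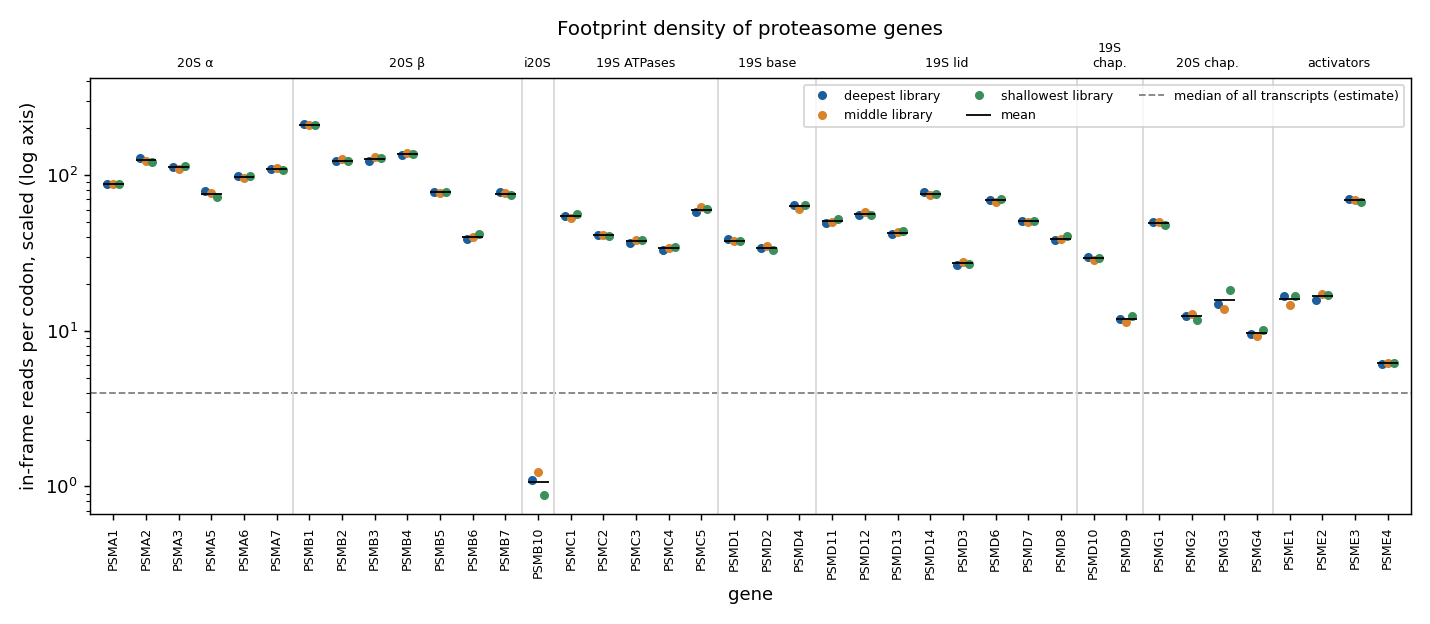
In-frame reads per codon of the CDS (log axis) in the 3 libraries, each scaled to the same total, for the 40 transcripts grouped by role; bars mark the means and the dashed line the estimated median of all transcripts. Core subunits sit highest, and PSMB10, with a mean of 1.07, is the single gene below the dashed line.

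Subunits of the 20S core carried more reads per codon than subunits of the 19S particle. The median over the 13 core subunits was 109 and that over the 16 subunits of the base and lid 46.7. The ratio of these medians was 2.38, 2.37 and 2.27 in the 3 libraries (2.34 ± 0.0618, SD, n = 3). Of the 13 core subunits, 12 lay above the highest 19S subunit, but the margin was narrow at the border. PSMD14, the highest of the 19S subunits, had 77.6, 74.6 and 75.4 reads per codon in the deepest, middle and shallowest library. PSMB7 had 77.7, 76.3 and 74.0, PSMA5 78.9, 76.5 and 72.6, and PSMB5 77.8, 76.6 and 78.0, so that these 3 core subunits overlapped with PSMD14. The exception was PSMB6, with 38.6, 39.9 and 42.1, below 10 of the 16 subunits of the 19S particle by its mean and below every other core subunit in all 3 libraries.

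Within the alpha ring reads per codon were close to each other. The 6 alpha subunits measured ran from 76.0 (PSMA5) to 124 (PSMA2), a range of 1.63-fold, and the SD of the log2 values was 0.26. In PSMA1, PSMA2 and PSMA6, 87.3%, 100% and 97.0% of the CDS 30-mers also occurred in transcripts of other genes, and the part of this shared sequence was not tested. The mRNA level implied by the worth of a read varied more, over 6.76-fold with an SD of 0.92, and occupancy per mRNA over 4.72-fold with an SD of 0.81 on the log2 scale. Reads per codon are the product of mRNA level and occupancy by construction, so these 3 spreads are not independent of each other. PSMA5 stood at 1 end, with the lowest implied mRNA level of the ring (0.405 ± 0.004 relative to the median of the 40 transcripts, SD, n = 3) and the highest occupancy per codon (0.287 ± 0.0291). At the other end was PSMA7, with an implied mRNA level of 2.74 ± 0.126 and an occupancy of 0.0608 ± 0.0045, the lowest of the ring. Their reads per codon were 76.0 ± 3.18 and 109 ± 1.79. PSMA5 was measured on a CDS of 184 codons, where the canonical CDS of GENCODE has 242. The part of this shorter CDS in its values was not tested. Next to PSMA5 came PSMA3 in implied mRNA level (1.14) and PSMA2 in occupancy (0.155).

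The beta ring was less even. It ranged from PSMB6 (40.2) to PSMB1 (210 ± 1.53), 5.22-fold, with an SD of 0.77 on the log2 scale. PSMB1, PSMB4 and PSMB3, none of them catalytic, and PSMB2, which is also without a catalytic site, had more reads per codon than the 3 catalytic subunits in every library. PSMB2 reached 124 ± 2.03 from a low implied mRNA level of 0.635 ± 0.007 and the highest occupancy of the core (0.298 ± 0.0204). By contrast PSMB4 reached 136 ± 2.00 from an mRNA level of 3.82 ± 0.083 with an occupancy of 0.0545 ± 0.00198. PSMB2 was measured on a CDS of 177 codons, where the canonical one has 202, and the part of this was not tested. Over the whole core the SD of log2 reads per codon was 0.57, that of the implied mRNA level 0.99 and that of occupancy 1.00.

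**Figure D2:**
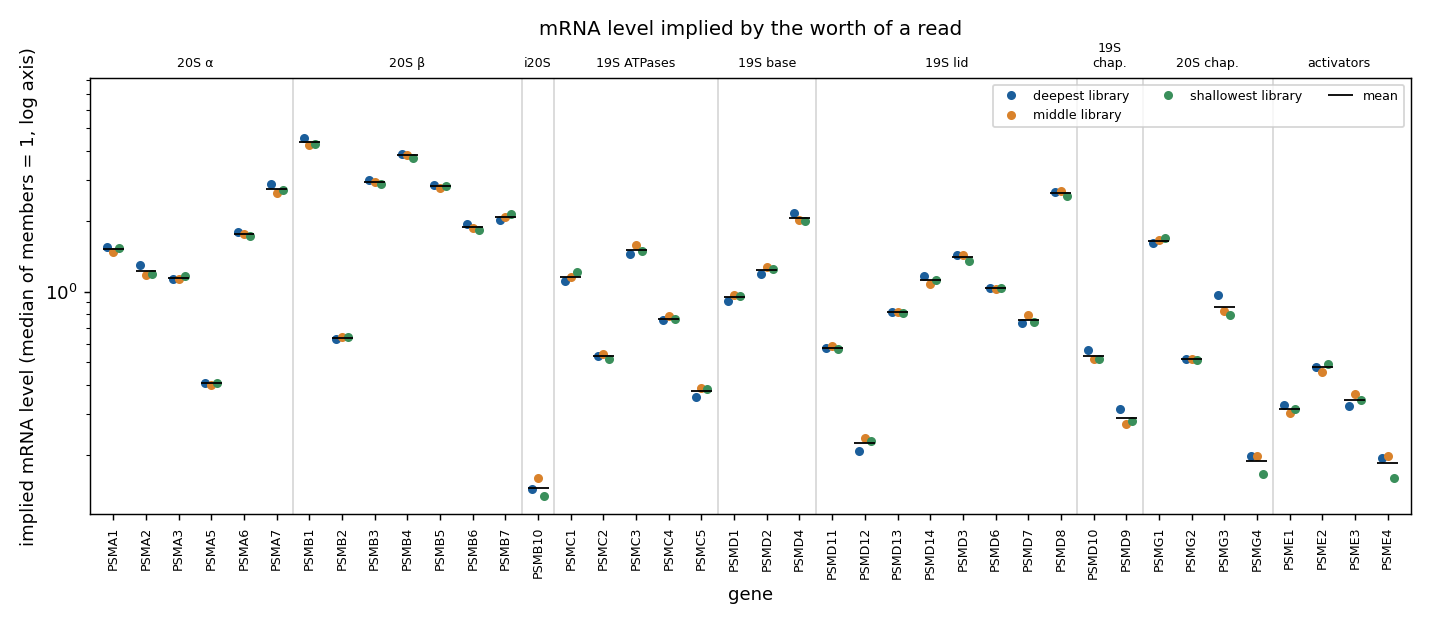
mRNA level implied by the worth of a read (log axis, median of the 40 transcripts set to 1) in the 3 libraries, grouped by role, with bars at the means. The alpha ring spans 6.76-fold and the beta ring 6.86-fold, with PSMA5 and PSMB2 lowest, both on a CDS shorter than the canonical one. The next lowest are PSMA3 at 1.14 and PSMB6 at 1.89.

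In the 19S particle the 5 ATPases measured ran from 33.8 (PSMC4) to 60.1 (PSMC5) reads per codon and the 8 lid subunits from 27.1 (PSMD3) to 75.8 (PSMD14). PSMD1 and PSMD2, the scaffold subunits of the base, had 38.0 ± 0.693 and 33.9 ± 1.04, and the ubiquitin receptor PSMD4 had 63.1 ± 2.06. PSMD12, a lid subunit, had the lowest implied mRNA level of the 19S subunits (0.225 ± 0.015) and the highest occupancy of all 40 transcripts (0.383 ± 0.0411). Its reads per codon, 56.2 ± 1.45, were above the median of the particle. Over its whole CDS PSMD8 was the reverse, with an implied mRNA level of 2.64 ± 0.060, the lowest occupancy of the particle (0.0227 ± 0.000178) and 39.1 ± 1.18 reads per codon. These values count a start almost without reads, which is described below. Its 258 codons from the third in-frame ATG had 51.6 reads per codon, above the median of 46.7 of the particle. Its rank in occupancy without the empty start was not computed.

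Most assembly chaperones and activators had fewer reads per codon than PSMD3, the lowest of the 13 core and 16 19S subunits, but PSMG1, PSMD10 and PSME3 had more. PSMG2, PSMG3 and PSMG4 had 12.4 ± 0.514, 15.7 ± 2.40 and 9.65 ± 0.442, and PSMD9 11.9 ± 0.509. The base chaperone PSMD10 had 29.3 ± 0.796. PSMG1, which pairs with PSMG2 in the cell, had 50.0, 49.7 and 47.6 in the 3 libraries, about the level of a 19S subunit. PSME1 and PSME2, which form the interferon-inducible PA28 ring together, had nearly equal densities of 16.1 ± 1.21 and 16.6 ± 0.748, and their library values overlapped. Of the CDS 30-mers of PSME2, 50.9% also occurred in transcripts of other genes. PSME1 was measured on a CDS of 237 codons, where the canonical one has 250. The part of either was not tested. PSME3, the subunit of the nuclear PA28γ ring, had 68.9 ± 1.44, and PSME4, the large activator PA200, 6.18 ± 0.051.

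The immunoproteasome, a form of the core that interferon induces with its own catalytic subunits, had few footprints. PSMB10 replaces PSMB7 in it and was the one such subunit with a row. It had 301 reads in all, or 1.10, 1.24 and 0.877 scaled reads per codon, against 76.0 ± 1.85 in PSMB7. The reads were uneven along the CDS: codons 1 to 125 held 12 of them and codons 126 to 274 held 289. Of the 30-mers of its CDS, 55.1% also occurred in a transcript of 1 other gene, and the part of those reads was not tested.

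Translational efficiency, the authors' ratio of RPFs to total RNA for each gene and replicate, was above the median of all genes for most members. The median over the 39 members was 0.818, against 0.385 over all genes. Tested with limma against the median of all values, 35 of the 39 members differed from it (adjusted p at an FDR of 0.05), and so did 89.3% of all genes, so that the count is near the background. Of the members 28 were higher, where 44.7% of all genes were, and 7 were lower, where 44.6% of all genes were. This split was not tested over the list. PSMA6, PSMB6, PSMD2 and PSMG2 were not distinguished from the median.

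**Figure D3:**
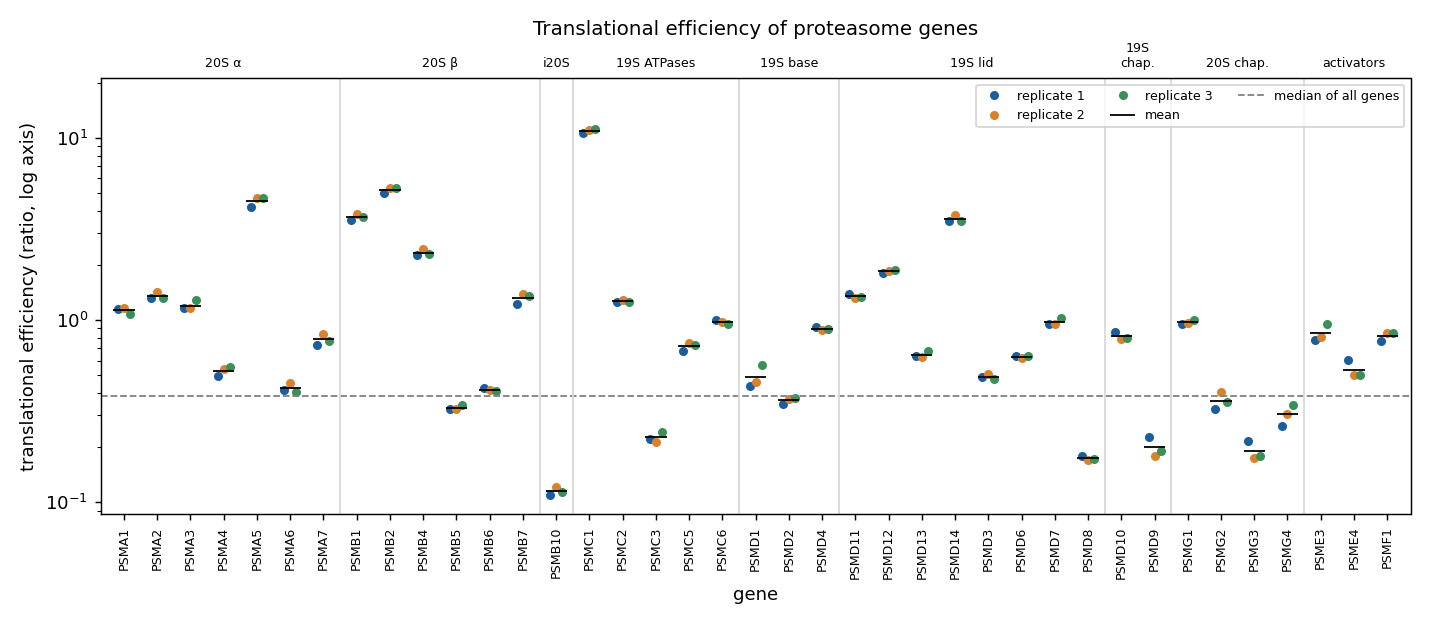
Translational efficiency (ratio, log axis) of the 39 members in replicates 1 to 3, grouped by role, with bars at the means and the median of all genes as a dashed line. Replicates lie close together, and members differ over 95.7-fold from PSMB10 to PSMC1.

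By group, 6 of 7 alpha subunits and 4 of 6 beta subunits were higher, 4 of 5 ATPases, 2 of 3 other base subunits, 7 of 8 lid subunits, 1 of 2 base chaperones, 1 of 4 core chaperones and 3 of 3 activators and inhibitors. In the alpha ring PSMA5 was highest, at 4.17, 4.67 and 4.69 in the 3 replicates, and PSMA6 lowest at 0.415, 0.450 and 0.402, around the median of all genes. PSMA4, measured here only, had 0.494, 0.538 and 0.552. In the beta ring PSMB2 was highest at 4.98, 5.29 and 5.33. The catalytic subunits differed from each other without overlap: PSMB7 had 1.22, 1.38 and 1.36, PSMB6 0.422, 0.414 and 0.410, and PSMB5 0.324, 0.327 and 0.342. PSMB5 lay 0.21 below the median on the log2 scale (SE 0.0493, limma adjusted p = 0.0112), while PSMB6 lay 0.11 above it (SE 0.0477, adjusted p = 0.0725).

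Among the ATPases, which form a heterohexamer, PSMC1 had the highest translational efficiency of all members, at 10.6, 11.1 and 11.2, and PSMC3 the lowest of the ring at 0.224, 0.214 and 0.242. The difference between these ATPases was 48.5-fold in the mean. In the other readouts PSMC1 was also above PSMC3, but by less: reads per codon were 54.6 ± 1.60 and 37.7 ± 0.800, and occupancy was 0.0722 ± 0.0061 and 0.0382 ± 0.00207. Of the CDS 30-mers of PSMC1, 99.8% also occurred in transcripts of other genes, all 13 of them pseudogenes, and in PSMC3 9.76% did. The part of this shared sequence in the value of PSMC1 was not tested. The ratio of translational efficiency to occupancy was 152 in PSMC1, where the median of all 6912 genes in both tables was 7.72 and the 90th percentile 20.8. PSMB1 (49.9), PSMB4 (43.02), PSMD14 (34.7), PSMB7 (23.6) and PSMG1 (21.3) were above that percentile as well, and no more than 0.87% of their 30-mers were shared. PSMC6, with a translational efficiency only, had 0.996, 0.977 and 0.958, and 64.0% of its 30-mers were shared.

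PSMD4 had 0.918, 0.888 and 0.893, the highest of the base subunits without ATPase activity, and PSMD2 the lowest at 0.346, 0.367 and 0.375 (adjusted p = 0.213). In the lid PSMD14, the deubiquitinase, was highest at 3.50, 3.76 and 3.51, and PSMD8 lowest at 0.180, 0.171 and 0.173, 1.09 below the median on the log2 scale (SE 0.0491, limma adjusted p = 1.54e-05). All 3 replicates of every other lid subunit were above those of PSMD8. Of the base chaperones PSMD10, also known as gankyrin, had 0.862, 0.791 and 0.801, and PSMD9 0.229, 0.180 and 0.191.

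PSMG1 and its partner PSMG2 were apart also in translational efficiency, at 0.949, 0.965 and 1.00 against 0.323, 0.401 and 0.357. The second pair of core chaperones was low in both: PSMG3 had 0.217, 0.174 and 0.180 and PSMG4 0.264, 0.306 and 0.340. Both differed from the median of all genes, by -0.98 (SE 0.0763, limma adjusted p = 0.000122) and -0.33 (SE 0.0815, adjusted p = 0.0120) on the log2 scale. PSME3 had 0.778, 0.809 and 0.954, PSME4 0.602, 0.497 and 0.498, and the inhibitor PSMF1 0.771, 0.847 and 0.852. PSMB10 had the lowest value of all members at 0.109, 0.121 and 0.114.

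Proteins that work with the proteasome but lie outside the symbol rule were read from a list for comparison. The 24 symbols hold SEM1 and ECPAS also by their older names SHFM1 and KIAA0368. A translational efficiency was found for 22 symbols, and SHFM1 and ECPAS, without a value, have one under the other name. Of the 22, 16 were higher and 6 lower than the median of all genes. Of all genes 89.3% differed from it, 44.7% higher and 44.6% lower. SEM1, a small lid subunit, was highest with 8.60, 8.39 and 11.3. NGLY1, the deglycosylase that activates the transcription factor of proteasome genes, was lowest with 0.111, 0.0977 and 0.112. That transcription factor, NFE2L1, was also among those lower, at 0.221, 0.186 and 0.167. POMP, the maturation factor of the core, had 4.23, 4.28 and 4.50.

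Ribosomes were not placed alike along the members. The reads of the first 75 codons over those of the last 75 had a median of 0.803 over the 38 transcripts of at least 150 codons, and 0.991 over all 8809 such transcripts (quartiles 0.536 and 1.72). The ratio was below 1 in all 3 libraries for 23 members and above 1 in all 3 for 13. Such a count was not made over all transcripts, whose median lies near 1. The ratio was highest in PSMB6, at 2.56, 2.77 and 2.79. There codons 26 to 75 held 84.0 reads per codon and the 165 codons after them 31.7. PSMB5 followed with 1.85, 1.80 and 1.84. Its CDS of 161 codons starts inside the canonical CDS of 264, so its first window is not the start of the canonical CDS. The same holds for PSMA5, PSMD2 and PSMG2, which are also among the 38 transcripts. The part of these inner starts in the ratios was not tested.

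**Figure D4:**
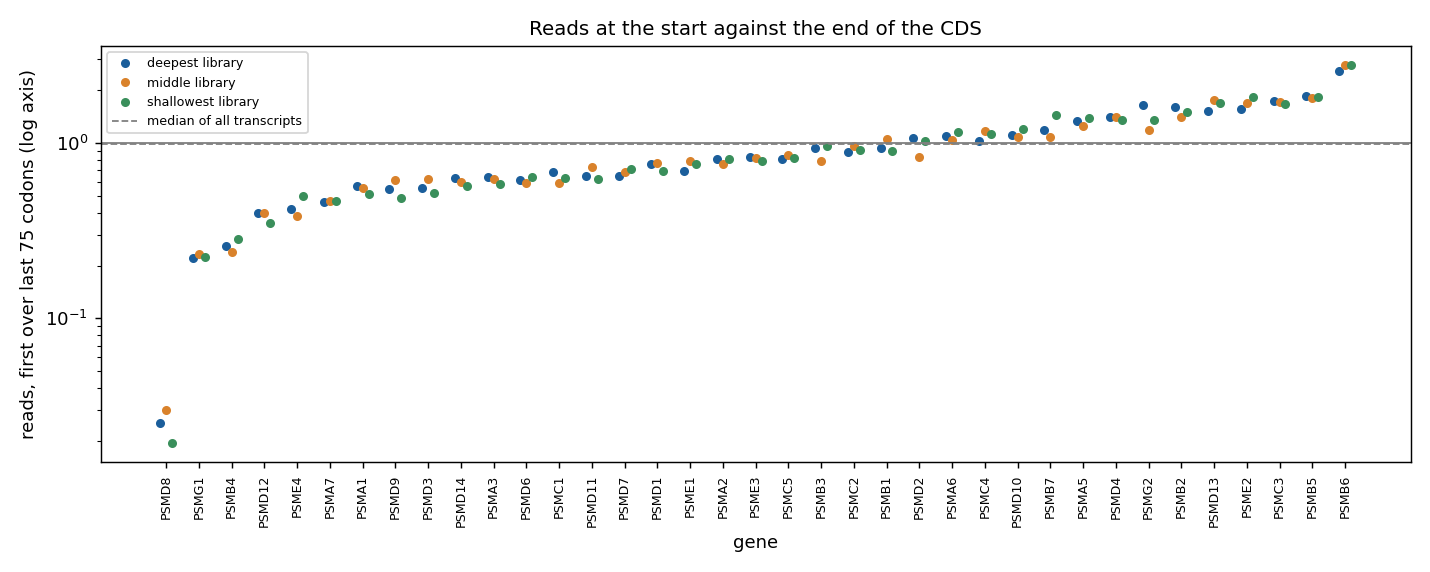
Reads in the first over the last 75 codons of the CDS (log axis) in the 3 libraries for 37 transcripts in order of their mean; PSMB10, with a ratio of 0 in 1 library, is not drawn. The libraries agree closely within a gene, from PSMD8 near 0.025 to PSMB6 near 2.71.

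By the mean over libraries the lowest ratio was that of PSMD8, at 0.0253, 0.0301 and 0.0195, and its CDS had an empty start. PSMB10, with few reads, had 0.2, 0.0208 and 0, which was lower than PSMD8 in the middle and shallowest library. Codons 1 to 63 held 2 reads in the 3 libraries together. From the second in-frame ATG, at codons 64 to 93, there were 171, 141 and 36 reads, or 11.6 per codon over the libraries. From the third ATG at codon 94 up to codon 167 there were 2228, 1889 and 1183, or 71.6 per codon. No read fell in the first 50 codons, which held for 3 of the 1344 transcripts with at least 10000 estimated reads (0.223%). The occupancy and windows of PSMD8 count the empty codons, and without them its 258 codons from the third ATG had 51.6 reads per codon. The region before the first ATG, over 14 codons, held 0 reads.

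**Figure D5:**
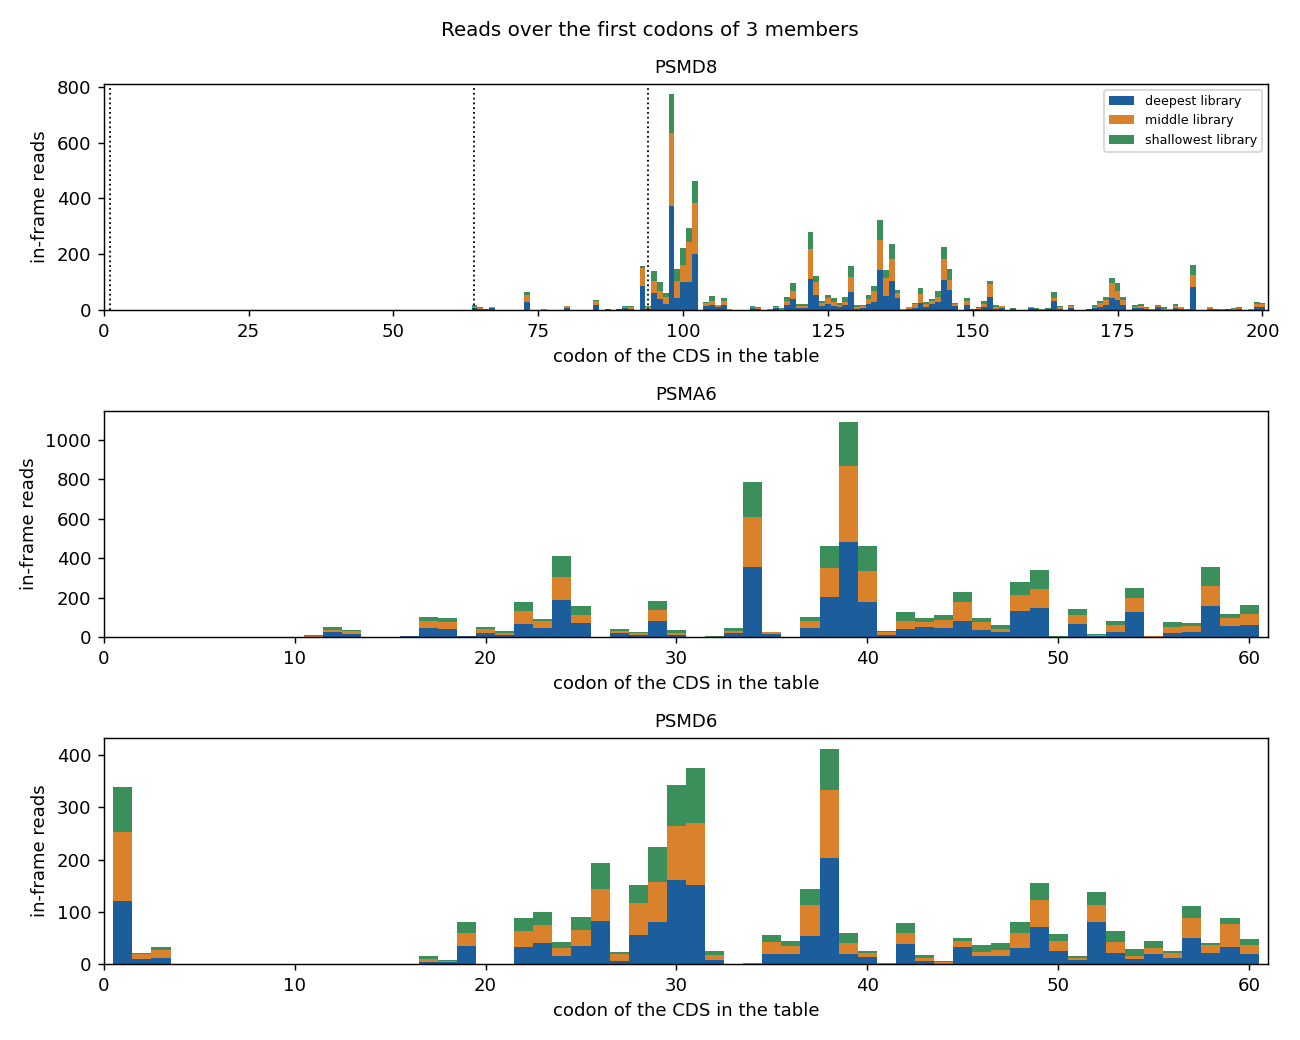
In-frame reads at each of the first codons of PSMD8, PSMA6 and PSMD6, stacked by library; dotted lines in the PSMD8 panel mark the first 3 in-frame start codons. Reads begin at the second line in PSMD8 and rise at the third, PSMA6 has none at codons 1 to 10 and PSMD6 none at codons 7 to 16.

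Empty codons were also found where the table represents a gene by a CDS shorter than the canonical one of GENCODE. The authors took the most abundant transcript of each gene in total RNA. This was a shorter CDS in 9 of the 40 transcripts. In PSMA6 the first 6 codons differ from the canonical CDS, and codons 1 to 10 held 0 reads while the next 50 held 143 per codon. In PSMD6 a segment after codon 10 is left out, and codons 7 to 16 around this junction held 0 reads while codons 1 to 6 had 66.2 per codon and the 50 codons after them 74.5. In PSMG1, which also lacks an internal segment, the junction was not empty: the 5 codons before it had 83 reads and the 5 after it 24. Of all transcripts with at least 10000 estimated reads, 2.01% had 10 or more empty codons at the start. No such share was taken for gaps inside a CDS, like that of PSMD6.

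In PSMA5, PSMB5, PSMD2 and PSMG2 the shorter CDS starts inside the canonical one. Reads that the table counts in their 5′UTR therefore lay largely on canonical coding sequence: 288 of 293 in PSMA5, 364 of 373 in PSMB5, 566 of 566 in PSMD2 and 18 of 18 in PSMG2 were within the stretch next to the start that both have in common. The stretch is 48, 37, 11 and 12 codons long. It was taken from a GENCODE model of the same CDS length, whose 5′UTR differs in length from that in the table in all 4 genes, by a few codons in PSMB5, PSMD2 and PSMG2 and most in PSMA5 (63 codons in the table and 317 in the model). PSMD2 is the clearest case, with 154, 135 and 90 of its reads at a single codon 6 codons before the start. For PSMB2 and PSME1, whose CDS is also shorter, no model of that length was found.

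In-frame reads in the 5′UTR were few over the members, 3093 or 0.423% of all their in-frame reads. Over the 22 transcripts with a 5′UTR of at least 34 codons, the last 17 codons had a mean occupancy of 0.00799 and a median of 0.00221, where these were 0.0111 and 0.00195 over all 6905 such transcripts. PSME3, PSMD2 and PSMA5 were highest. In PSME3, with 189 reads over 16 codons of the 5′UTR, most were at 2 neighbouring codons, 12 and 13 before the start, with 41, 50 and 25 at the first of these and 18, 16 and 10 at the second. PSMD14 had 556 reads spread over 57 of its 152 5′UTR codons, and PSMB3 had 97, 73 and 64 at a single codon 11 before the start.

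Single codons took a large part of the reads in a few members. In PSMG3 codon 5 held 28.6%, 34.7% and 37.01% of the reads of the CDS in the 3 libraries (223, 205 and 188 reads), while codons 6 to 123 had 10.6 reads per codon. Codon 167 of PSMB10 followed with 17.1%, 16.9% and 24.1%, which were 22, 20 and 13 reads. PSMG4 had 15.6%, 12.8% and 15.2% at codon 108, PSMG1 11.98%, 12.06% and 11.1% at codon 154, and PSMB5 11.1%, 10.3% and 9.75% at codon 30. The highest codon of PSMG2, the other core chaperone, had a mean share of 6.66%. PSMG1, PSMB5 and PSMG2 were measured on a CDS of 268, 161 and 234 codons, where the canonical one has 289, 264 and 265. Their codon numbers and shares are those of the shorter CDS. Over all members the highest codon had a median share of 5.28%, and over all transcripts 4.95%. A share above 10% was found in 9.67% of the transcripts with at least 10000 estimated reads, to which PSMG1 and PSMB5 belong by their counts. PSMG3, PSMG4 and PSMB10, with 1878, 1188 and 301 reads, lie below that depth. No share was taken for transcripts of their depth or length. The position of a peak can be moved by cycloheximide, which was present in the cells and in the lysis buffer, and its part was not tested.

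PSMG1 combined its peak with a sparse start. Codons 1 to 100 had 747, 585 and 362 reads, or 16.9 per codon, and codons 101 to 268 had 4981, 4051 and 2506, or 68.7 per codon. PSMB4 was of the same form, with 54.6 reads per codon in codons 1 to 100 and 186 in the rest. PSMC3 had the opposite form, with 53.5 per codon in codons 1 to 225 and 21.0 in codons 226 to 440. The forms were alike in the 3 libraries, and the borders were chosen after the profiles had been seen.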

How the data were processed

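Values came from 3 RPF and 3 total RNA libraries of HEK293 cells. The submitters' processing notes name cutadapt 1.16, Bowtie 1.1.2, TopHat2 2.1.1, HTSeq 0.9.1 and hg19. RPF reads of 28 to 30 nt were placed with an offset of 13 nt after PCR duplicates had been removed. The authors deposited translational efficiency as a ratio for each gene and replicate, and the sources used here do not give its formula. Occupancy was deposited per codon, as counts of in-frame RPFs scaled by the authors to the size of the library and to TPM, with replicates combined.

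The worth of a read in each library was found from the low values (up to 25 times the smallest), and every value was split into whole reads with a tolerance of 1e-09 reads. On 40 simulated transcripts all 9829 values were split into the reads simulated. Intervals between libraries cover these 3 libraries of a single cell line, and the labels do not say that they are separate cultures. The implied mRNA level is the inverse of the product of the worth of a read and the library's CDS reads over the 40 transcripts. It is given relative to the median member.

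Translational efficiency was tested with limma 3.58.1 (R 4.3.3) on log2(value + 0.01), without a filter on low values, as a difference of each gene from the overall median, with p-values adjusted by Benjamini-Hochberg over 8121 genes at an FDR of 0.05. Differences on this scale understate those of low values. The pairing of RPF and total RNA by replicate is inside the ratio. Python 3.11.15, numpy 2.4.6 and pandas 2.3.3 were used. Sequences, isoforms and shared 30-mers are from GENCODE 44 on GRCh37.

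Members and lists were chosen with earlier results of these data known. Named are, by rule, the highest and lowest translational efficiency in each group, the catalytic and immunoproteasome subunits, PSMD4, PSMD14, the chaperones and activators, members below the median or in 1 table, and the extremes of single-codon share, 5′UTR occupancy and window ratio. Other members and the segments of the CDS were named after their values had been seen.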

Additional observations from a re-analysis of the deposited data

Results flagged for a closer look

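In-frame reads in the 3′UTR enter none of the comparisons above. The members had 124 of them over 9218 codons, 0.017% of their in-frame reads and above the 3 reads that a count of 0 allows. They were spread over 24 members, with 28 in PSMB2 and 15 in PSMD12, and 16 members had none. No control library measures their background.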

How the results depend on the processing

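The counts of members that differed in translational efficiency (35, with 28 higher and 7 lower) were the same with a pseudocount of 0.1, with a minimum mean of 0.05, without each replicate in turn and with a replicate block that removed each replicate's own median. The pairing of libraries is part of the ratio, and under the block 7265 of all genes differed against 7249 without it. Without each replicate in turn 7015 to 7091 did. The median difference of the members from all genes, 1.07 on the log2 scale, was 0.92 with a pseudocount of 0.1 and 1.01 over members with under 5% shared 30-mers. Mean occupancy was 0.0984, 0.0854 without the highest 1% of codons, and its median over members was 0.0698. The window ratio of 0.803 was 0.773 with windows of 50 codons, 0.887 without the 15 codons next to start and stop and 0.787 without the highest codon of each window. The 5′UTR value of 0.00799 was 0.00664 over 10 codons and 0.00949 without the 5 codons next to the start. Over the 16 members with the canonical CDS, an alternative added after seeing the data, it was 0.00603. The spread of 0.57 among core subunits was 0.58 without the highest 1% of codons, 0.59 without the first and last 15 codons and 0.71 over subunits with under 5% shared 30-mers. Leaving out each recovered library in turn, also added after seeing the data, moved the occupancy, window, 5′UTR and spread values by less than the spread between libraries. For occupancy and 5′UTR, which are means over the libraries, this could not have come out otherwise. It is therefore no test of how stable they are. None of these alternatives turned a direction. Depth limits PSMB10 most, with 301 reads.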
